A study of Mus musculus with 18 samples.

Results

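The collagen genes of mouse embryonic fibroblasts were followed across 2 cell lines and 3 levels of the proteasome inhibitor MG132. A gene was taken when its name was Col, a number, the letter a and a number, when at least 10 sequenced fragments were counted for it in at least 3 of the 18 libraries, and when the counting program skipped it in no library for excess data. Of the 24318 genes in the deposited tables, 44 carried such a name and 34 met these conditions. The 34 genes comprise 10 fibrillar, 7 basement membrane, 4 beaded filament, 6 FACIT (fibril-associated collagens with interrupted triple helices), 3 network-forming, 1 anchoring fibril and 2 transmembrane genes and 1 of another type. Just inside the limit were Col4a4, Col9a3 and Col22a1, each with 10 fragments or more in 4 libraries, and just outside it was Col24a1, which reached 10 fragments in 2 libraries. The other names left out were Col4a3, Col6a4, Col6a6, Col9a1, Col9a2, Col13a1, Col19a1, Col25a1 and Col26a1. All 34 passed the filter on low counts and were tested. Of these, 7 did not reach 10 fragments in 3 of the 6 vehicle libraries and so met the limit with the help of treated libraries, namely Col4a4, Col6a5, Col9a3, Col17a1, Col22a1, Col23a1 and Col28a1. Col6a5 reached it in the 1.0 µM libraries alone, Col22a1 and Col28a1 in T-N1G libraries alone, and Col9a3, Col17a1 and Col23a1 mostly at 1.0 µM. A gene admitted by the group in which it is high had to differ there, so the differences of these 7 are given as descriptions and support nothing. The limit can favour other groups in the same way. Col2a1 reached 10 fragments in 5 vehicle libraries and 1 treated library, and Col11a1 in 8 mock libraries and, of the T-N1G libraries, only in 2 vehicle ones. Their differences between those groups are descriptions too.

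The cells were immortalised embryonic fibroblasts of the genotype MafF-/-::MafG-/-::MafK-/- (F0G0K0), so every library, controls included, came from cells without the small Maf transcription factors. The mock line was set beside a line expressing T-N1G, a fusion in which the transcription factor Nrf1 is tethered to its partner MafG. Each line was exposed for 12 h to vehicle, 0.3 µM MG132 or 1.0 µM MG132, with 3 libraries in each of the 6 groups. The sources used here do not give the promoter driving T-N1G or the number of clones in each line. They also do not say whether replicate libraries were grown as separate cultures, and every p-value below therefore reflects spread among libraries, which may be technical. In such bulk libraries, fewer cells of a type and less RNA per cell cannot be told apart.

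Collagens are trimers of chains wound into a triple helix, and each chain has its own gene. Fibroblasts lay down fibrils of types I, III and V, while type IV forms the sheet of basement membranes, type VI forms beaded microfilaments, and the FACITs sit on fibril surfaces. New chains are hydroxylated and folded in the endoplasmic reticulum, carried out in enlarged transport vesicles, trimmed by proteases outside the cell and cross-linked by lysyl oxidases.

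Each library held 18164380 to 21293709 gene-assigned fragments. Mafg was at 0.276 to 1.32 CPM (counts scaled to library size) in the 9 mock libraries and at 141.7 to 4237.9 CPM in the 9 T-N1G libraries, as the labels state. Of 9 fibroblast markers, Fap and Dpt averaged under 1 CPM in every group, and the summed level of the 9 was 3698.6 to 4132.9 CPM in mock vehicle, 3168.8 to 3346.3 at 0.3 µM and 2206.0 to 2874.8 at 1.0 µM. In the T-N1G line the same sum was 3418.0 to 3648.0, 1730.4 to 1820.8 and 1116.1 to 1661.8 CPM. The 7 leukocyte markers summed to 2.46 to 2.87, 4.75 to 4.91 and 4.7 to 4.75 CPM in the mock groups and 1.81 to 2.44, 3.72 to 4.2 and 5.75 to 10.1 CPM in the T-N1G groups. Of the 3 leukocyte markers tested, all 3 were called higher at 1.0 µM in both lines, while Cd3e was at 0 in every mock group and in T-N1G vehicle. The part of these markers in the collagen values was not tested. In both lines at 1.0 µM, library 2 stood apart from libraries 1 and 3 for many collagen genes, as the values below show.

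Promoter sequences are shown for Col1a2 and Col3a1, which fell with MG132 in both lines, and for Col6a5. The counts of Col6a5 were highest at 1.0 µM in both lines, but those libraries are what admitted it to the set. RefSeq windows of the 250 bases before the annotated start were found for 27 of the 34 genes (29 windows, build GRCm38.p6), and each is printed 5′ to 3′ in the direction of transcription. Capitals mark 3 promoter motifs searched on both strands, which are CCAAT (bound by NF-Y), the basal promoter element TATAAA and the Sp1 box GGGCGG, and in Col6a5 also the reverse complement of TGANNNNGC, a loose form of the element that CNC and small Maf proteins bind as pairs.
Col1a2, chr6:4505368-4505617, plus strand: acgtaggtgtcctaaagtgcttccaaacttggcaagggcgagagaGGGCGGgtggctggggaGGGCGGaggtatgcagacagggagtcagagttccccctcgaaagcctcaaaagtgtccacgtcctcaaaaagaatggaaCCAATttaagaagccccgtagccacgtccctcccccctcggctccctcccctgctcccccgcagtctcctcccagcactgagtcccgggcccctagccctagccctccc
Col3a1, chr1:45311288-45311537, plus strand: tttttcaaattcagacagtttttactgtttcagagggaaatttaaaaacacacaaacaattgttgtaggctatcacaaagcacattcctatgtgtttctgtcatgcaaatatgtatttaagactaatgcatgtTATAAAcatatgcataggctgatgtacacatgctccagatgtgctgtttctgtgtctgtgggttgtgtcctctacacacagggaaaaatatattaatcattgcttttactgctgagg
Col6a5, chr9:105960644-105960893, minus strand: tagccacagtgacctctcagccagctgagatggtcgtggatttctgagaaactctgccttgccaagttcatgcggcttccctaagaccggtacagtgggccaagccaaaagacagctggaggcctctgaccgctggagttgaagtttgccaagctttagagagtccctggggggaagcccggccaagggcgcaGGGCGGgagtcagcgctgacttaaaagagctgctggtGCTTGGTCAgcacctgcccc
The 29 collagen windows held GGGCGG in 18 (62.1%), against 32.7% of all 32851 windows of this length. CCAAT was in 34.5% of collagen windows and 33.8% of all, TATAAA in 13.8% and 12.4%, and TGANNNNGC in 34.5% and 35.2%. TGANTCA, the letters of an AP-1 site, which overlap TGANNNNGC where GC follows, were in 1 collagen window (Col6a1, 3.45%) and in 6.75% of all. These matches describe letters only.

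Col4a1 and Col4a2, the chains of the ubiquitous type IV trimer, are transcribed head to head on chromosome 8, and their annotated starts overlap by 22 bases at GRCm38.p6 chr8:11312805-11312826, printed on the plus strand with a GC box in capitals because both genes rose at 1.0 µM in the comparisons that follow.
Col4a1 and Col4a2 shared start: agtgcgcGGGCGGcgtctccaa
Col4a6 and Col4a5 are also head to head, with 1342 bases between their starts on chromosome X.

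Compared per transcript length, as FPKM, the type I chains were the most abundant collagens of untreated mock cells, Col1a1 at 566.1 ± 33.7 and Col1a2 at 557.8 ± 16.8 FPKM (SD, n = 3, as for every mean below). Col5a2 followed at 183.1 ± 5.95, Col5a1 at 110.4 ± 5.19 and Col3a1 at 87.7 ± 2.58 FPKM. Next came Col4a1 at 74.9 ± 5.15, Col6a1 at 74.7 ± 5.13, Col12a1 at 63.1 ± 5.49, Col4a2 at 62.5 ± 3.83 and Col6a2 at 57 ± 3.7 FPKM. Col1a1 and Col1a2, Col4a1 and Col6a1, Col12a1 and Col4a2, and Col4a2 and Col6a2 are neighbours in this order that did not differ beyond their spread. In T-N1G cells at 1.0 µM the order had other neighbours at the top. Col1a1 was at 224.0 ± 70.4, Col1a2 at 179.2 ± 70.2, Col4a2 at 177.8 ± 29.4 and Col4a1 at 173.6 ± 22.9 FPKM. Col5a2 followed at 163.6 ± 57.1 and Col12a1 at 125.1 ± 32.9 FPKM. The library values of each of these genes overlapped those of every other.

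**Figure D1:**
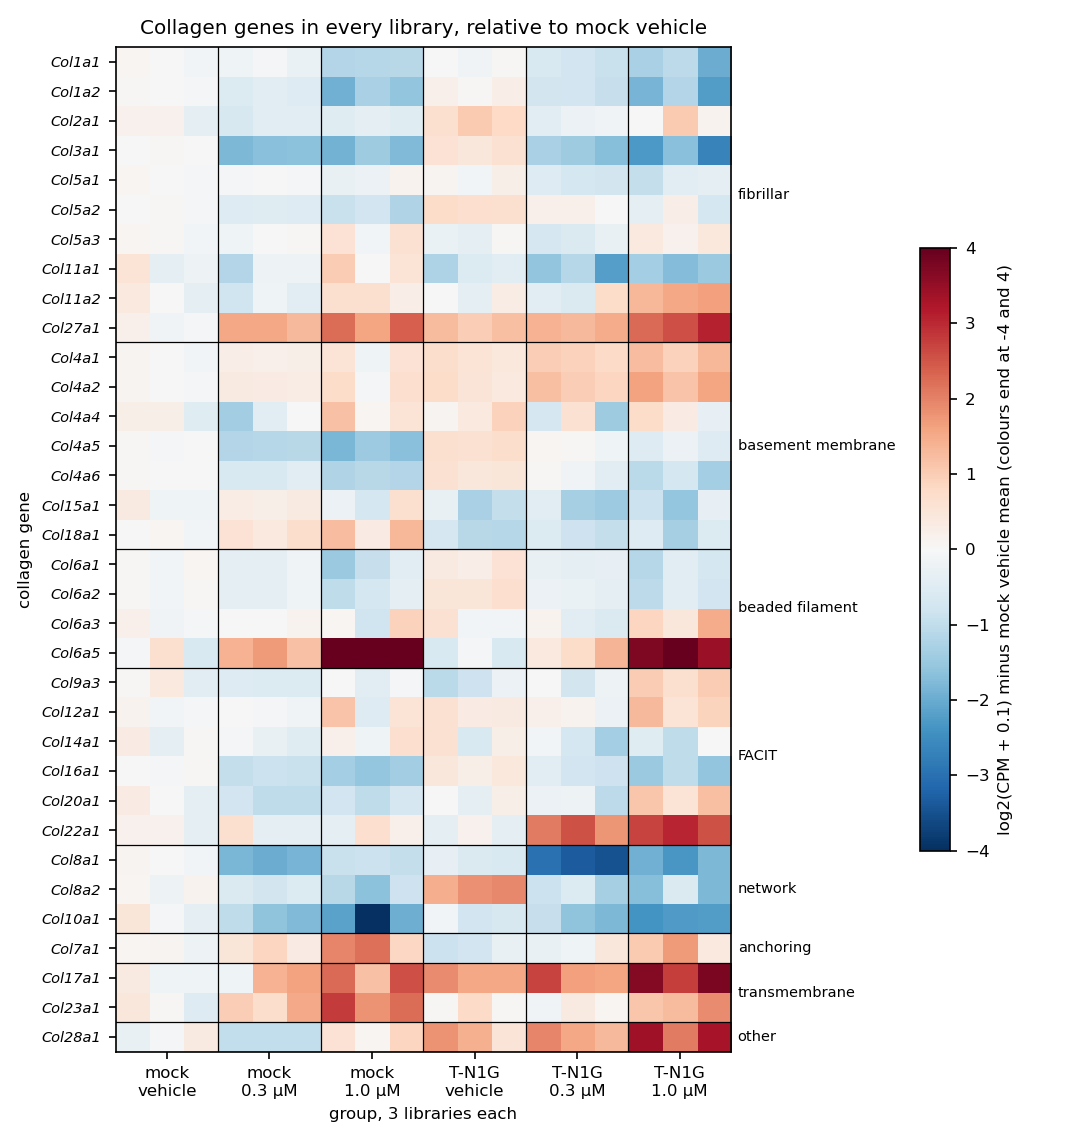
Level of each of the 34 collagen genes in each of the 18 libraries, as log2(CPM + 0.1) minus that gene's mean over the mock vehicle libraries with colours ending at -4 and 4, with genes in rows by structural class and libraries in columns by group. Fibrillar genes such as Col1a1, Col1a2 and Col3a1 are below their mock vehicle level at 1.0 µM in both lines, while Col4a1 and Col4a2 are mostly at or above it.

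Summed over the 34 genes, collagen transcripts took 1.15 ± 0.0473% of fragments in mock vehicle, 0.906% at 0.3 µM and 0.679% at 1.0 µM, and 1.39%, 0.858% and 0.783% in the T-N1G groups. On the scaled CPM that all later levels use, the fibrillar sum was 8332.9 ± 340.9 in mock vehicle, 6448.9 ± 248.0 at 0.3 µM and 3954.4 ± 291.6 at 1.0 µM. In the T-N1G line the fibrillar sum was 9718.2 ± 585.8, 5453.6 ± 439.1 and 3865.6 ± 1054.8 CPM. The treated and vehicle libraries of either line did not overlap in this sum.

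The means of the basement membrane sum had the opposite order over the doses, at 1112.9 ± 71.6, 1245.4 ± 21.4 and 1344.5 ± 345.3 CPM in mock and 1616.4 ± 142.0, 1951.7 ± 190.1 and 2401.1 ± 331.9 CPM in T-N1G cells. The mock 1.0 µM libraries were at 1535.3, 945.9 and 1552.4 CPM, so library 2 lay below every vehicle library. Most of this sum came from Col4a1 and Col4a2, at 507.2 and 410.7 CPM in mock vehicle and 1138.7 and 1132.1 CPM in T-N1G cells at 1.0 µM. Col4a5 and Col4a6 of the same class fell, as given below. The ratio of the fibrillar to the basement membrane sum was 7.28, 7.59 and 7.61 in mock vehicle, 4.98, 5.48 and 5.08 at 0.3 µM and 2.36, 4.42 and 2.61 at 1.0 µM. In T-N1G cells it was 5.61, 5.71 and 6.82, then 2.73, 2.83 and 2.83, then 1.38, 2.5 and 1.15. In both lines every 0.3 µM library lay under every vehicle library and every 1.0 µM library under every 0.3 µM library, with library 2 at 1.0 µM the highest of its group. The pair of type I genes made up 50.7 ± 0.311% of collagen fragments in mock vehicle and 31.9 ± 6.36% at 1.0 µM, and 44.3 ± 1.18% and 23 ± 6.45% in T-N1G cells. These sums were not tested.

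**Figure D2:**
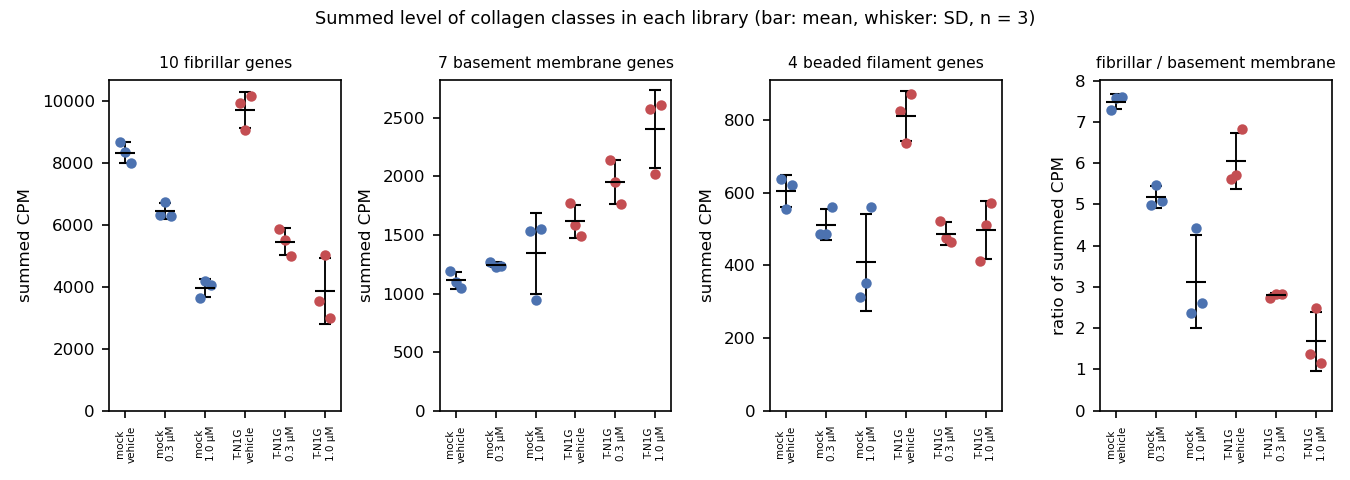
Summed CPM of the fibrillar, basement membrane and beaded filament genes, and the ratio of the first to the second, in each library (points, n = 3 per group) with the group mean (bar) and SD (whisker), for mock and T-N1G cells at vehicle, 0.3 µM and 1.0 µM MG132. The fibrillar sum is lower at each dose than in vehicle in both lines, and the basement membrane sum, mostly Col4a1 and Col4a2, has its highest mean at 1.0 µM.

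In mock cells at 1.0 µM, 13 of the 34 genes fell and 9 rose against vehicle, beside 37.4% of all 13258 tested genes lower and 32.4% higher (edgeR's quasi-likelihood test, Benjamini-Hochberg adjusted p under 0.05 over all genes, as for every call below). In the T-N1G line 13 fell and 13 rose (all genes, 38.9% and 37.5%). At 0.3 µM, 10 fell and 4 rose in mock cells (all genes, 28.1% and 25.0%) and 14 fell and 3 rose in T-N1G cells (30.3% and 29.1%). In T-N1G cells at 0.3 µM the median log2 change of the 34 was -0.49 and that of all genes -0.01. In mock cells at 0.3 µM those medians were -0.30 and -0.02. Every gene behind the counts of lower genes met the limit on vehicle libraries too, but 3 of the 9 higher in mock and 6 of the 13 higher in T-N1G cells at 1.0 µM did not, nor did 2 of the 4 and 2 of the 3 at 0.3 µM. Col2a1, among the 14 lower in T-N1G cells at 0.3 µM, was admitted mostly by vehicle libraries. At 1.0 µM the collagen medians were 0.11 for the mock and -0.15 for the T-N1G line. The sign of either rested on single libraries. The mock median became -0.29 without 1.0 µM library 3 and the T-N1G median 0.01 without vehicle library 1. Without libraries 2 at 1.0 µM, 7 genes rather than 4 were called higher in mock cells at 0.3 µM, an alternative chosen after seeing the data. Leaving out 1 library at a time, the 4 higher genes of mock cells at 0.3 µM became 1 without vehicle library 3 and 2 without vehicle library 2 or 0.3 µM library 2 or 3, and the 3 of T-N1G cells became 1 without vehicle library 3.

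From 0.3 to 1.0 µM, 9 genes rose and 9 fell in mock cells (all genes, 21.8% and 27.8%), and 15 rose and 7 fell in T-N1G cells (29.3% and 30.8%). Of the higher genes, 3 in mock and 5 in T-N1G cells did not meet the limit on vehicle libraries. Library 2 at 1.0 µM bore on these counts: without it the mock line had 14 higher genes, and without library 2 in both lines the T-N1G line had 11 lower. The 9 lower genes of the mock line became 5 without 1.0 µM library 1.

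The mock and T-N1G comparisons with vehicle share no library. Same-numbered 1.0 µM libraries of the 2 lines did deviate alike from their group means (correlations 0.578, 0.649 and 0.702), so the comparisons may not be independent. At 1.0 µM, 12 genes were lower in both, which is 92.3% of each line's 13, beside 74.5% and 71.7% over all genes. Col20a1 was lower in mock cells alone by this count and Col5a1 in T-N1G cells alone. Of the higher genes 8 were shared, 88.9% of the 9 in mock and 61.5% of the 13 in T-N1G cells (all genes, 73.6% and 63.5%). Among these 8, Col6a5, Col17a1 and Col23a1 were admitted mostly or wholly by 1.0 µM libraries, so their sharing is a description. At 0.3 µM, 9 lower genes were shared, 90.0% of the mock and 64.3% of the T-N1G list (all genes, 68.8% and 64.0%). The only higher gene shared at 0.3 µM was Col6a5, 25.0% of the 4 in mock and 33.3% of the 3 in T-N1G cells (all genes, 68.3% and 58.6%). It entered the set through treated libraries, so this too is a description.

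Counts by class are to be read beside all genes tested. At 1.0 µM 37.4% of all genes were lower and 32.4% higher in mock cells, with a median log2 change of -0.04. In T-N1G cells these were 38.9%, 37.5% and -0.01. At 0.3 µM the shares were 28.1% and 25.0% in mock and 30.3% and 29.1% in T-N1G cells. No class count was tested against them. By class, 4 of 10 fibrillar genes fell and 2 rose in mock cells at 1.0 µM, with a median log2 change of -0.35, and 5 fell and 3 rose in T-N1G cells, with a median of -0.77. At 0.3 µM the fibrillar counts were 3 lower and 1 higher in mock and 6 lower and none higher in T-N1G cells. Of 7 basement membrane genes, 2 fell and 3 rose in mock cells at 1.0 µM, with a median of 0.36. In T-N1G cells 2 fell and 2 rose, with a median of -0.04. All 3 network-forming genes fell at both doses in both lines. Of the 17 genes that are neither fibrillar nor of basement membranes, 7 fell and 4 rose in mock cells at 1.0 µM and 6 fell and 8 rose in T-N1G cells. Of those higher, 3 and 6 are genes that did not meet the limit on vehicle libraries.

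Col1a1 and Col1a2 encode the chains of type I collagen, the main fibril of skin, tendon and bone. Col1a1 (mm9 chromosome 11, 94797584 to 94813170) was at 2852.7, 2693.6 and 2512.1 CPM in the mock vehicle libraries, 2374.7, 2541.1 and 2243.4 at 0.3 µM and 1179.7, 1215.1 and 1236.6 at 1.0 µM. In T-N1G cells it was at 2727.5, 2445.8 and 2744.0, then 1746.3, 1572.1 and 1438.5, then 1098.0, 1310.1 and 678.8 CPM. In each line every 1.0 µM library lay below every other library, and Col1a1 fell 2.22-fold in mock (log2 -1.15, SE 0.157, adjusted p = 3.86e-06) and 2.56-fold in T-N1G cells (log2 -1.36, SE 0.158, adjusted p = 3.54e-07). At 0.3 µM it fell in T-N1G cells (log2 -0.73, SE 0.156, adjusted p = 0.000533), and in mock cells the difference did not pass the test (log2 -0.17, SE 0.155, adjusted p = 0.371).

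Col1a2 (mm9 chromosome 6, 4455697 to 4491543) was at 3018.3, 2879.5 and 2827.7 CPM in mock vehicle, 1988.1, 2140.3 and 2031.5 at 0.3 µM and 771.3, 1177.4 and 976.6 at 1.0 µM. The T-N1G libraries read 3337.4, 3033.2 and 3529.6, then 1765.9, 1697.5 and 1521.6, then 798.3, 1297.4 and 618.4 CPM. The 3 dose groups of each line did not overlap, and library 2 was the highest at 1.0 µM in both. Col1a2 fell 2.98-fold at 1.0 µM in mock (log2 -1.58, SE 0.196, adjusted p = 1.79e-06) and 3.65-fold in T-N1G cells (log2 -1.87, SE 0.198, adjusted p = 1.66e-07). The smaller fall of mock cells at 0.3 µM (log2 -0.50, SE 0.192, adjusted p = 0.036) was not called when any 1 of its 6 libraries was left out.

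Col3a1 encodes type III collagen, which mixes with type I in compliant tissues. Col3a1 (mm9 chromosome 1, 45368383 to 45406551) was at 488.7, 513.4 and 487.4 CPM in mock vehicle, 142.4, 156.2 and 159.4 at 0.3 µM and 133.8, 185.3 and 147.2 at 1.0 µM. Both treated groups lay far below vehicle and overlapped each other. The fall in mock cells was 3.25-fold at 0.3 µM (log2 -1.70, SE 0.182, adjusted p = 1.03e-06) and 3.19-fold at 1.0 µM (log2 -1.68, SE 0.182, adjusted p = 4.83e-07), and from the lower to the higher dose the log2 difference was 0.03 (adjusted p = 0.917). In T-N1G cells Col3a1 was at 741.9, 686.5 and 753.9, then 200.1, 186.7 and 152.2, then 100.6, 155.1 and 78.2 CPM. There it fell 4.05-fold at 0.3 µM and 6.53-fold at 1.0 µM (log2 -2.71, SE 0.189, adjusted p = 1.27e-09), and again between the doses (log2 -0.69, SE 0.18, adjusted p = 0.00369), although library 2 at 1.0 µM overlapped the 0.3 µM group.

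Col5a1 and Col5a2 encode chains of type V collagen, which nucleates type I fibrils. Col5a1 was at 1011.1, 935.9 and 920.7 CPM in mock vehicle and 770.4, 817.9 and 1047.1 at 1.0 µM, which overlap (log2 -0.12, adjusted p = 0.428). In T-N1G cells Col5a1 was at 1026.7, 889.1 and 1128.3, then 663.4, 581.2 and 578.5, then 494.1, 697.8 and 736.7 CPM, and fell at both doses (log2 -0.74, SE 0.134, adjusted p = 0.000118 at 0.3 µM; log2 -0.66, SE 0.134, adjusted p = 0.000227 at 1.0 µM). Col5a2 was at 1245.3, 1279.8 and 1194.0, then 858.3, 894.1 and 871.8, then 672.5, 724.3 and 543.8 CPM in mock and 2045.7, 1953.4 and 1951.8, then 1436.4, 1430.0 and 1240.8, then 971.5, 1483.6 and 762.4 CPM in T-N1G cells. It fell 1.92-fold in mock and 1.85-fold in T-N1G cells at 1.0 µM (log2 -0.94, SE 0.164, adjusted p = 6.53e-05 and log2 -0.89, SE 0.164, adjusted p = 8.93e-05), with every 1.0 µM library below vehicle in either line. At 0.3 µM the Col5a2 calls were lost without mock vehicle library 1 or 2, and without T-N1G 0.3 µM library 3. Col5a3, the third type V chain, ranged from 21.9 to 53.5 CPM over the 18 libraries and rose at 1.0 µM in both lines (log2 0.39, SE 0.157, adjusted p = 0.0352 in mock; log2 0.51, SE 0.158, adjusted p = 0.00682 in T-N1G). In mock cells library 2 at 1.0 µM lay below the vehicle libraries for Col5a3, and the call was lost without vehicle library 3, without 1.0 µM library 1 or 3, and with library size alone or only the groups compared.

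**Figure D3:**
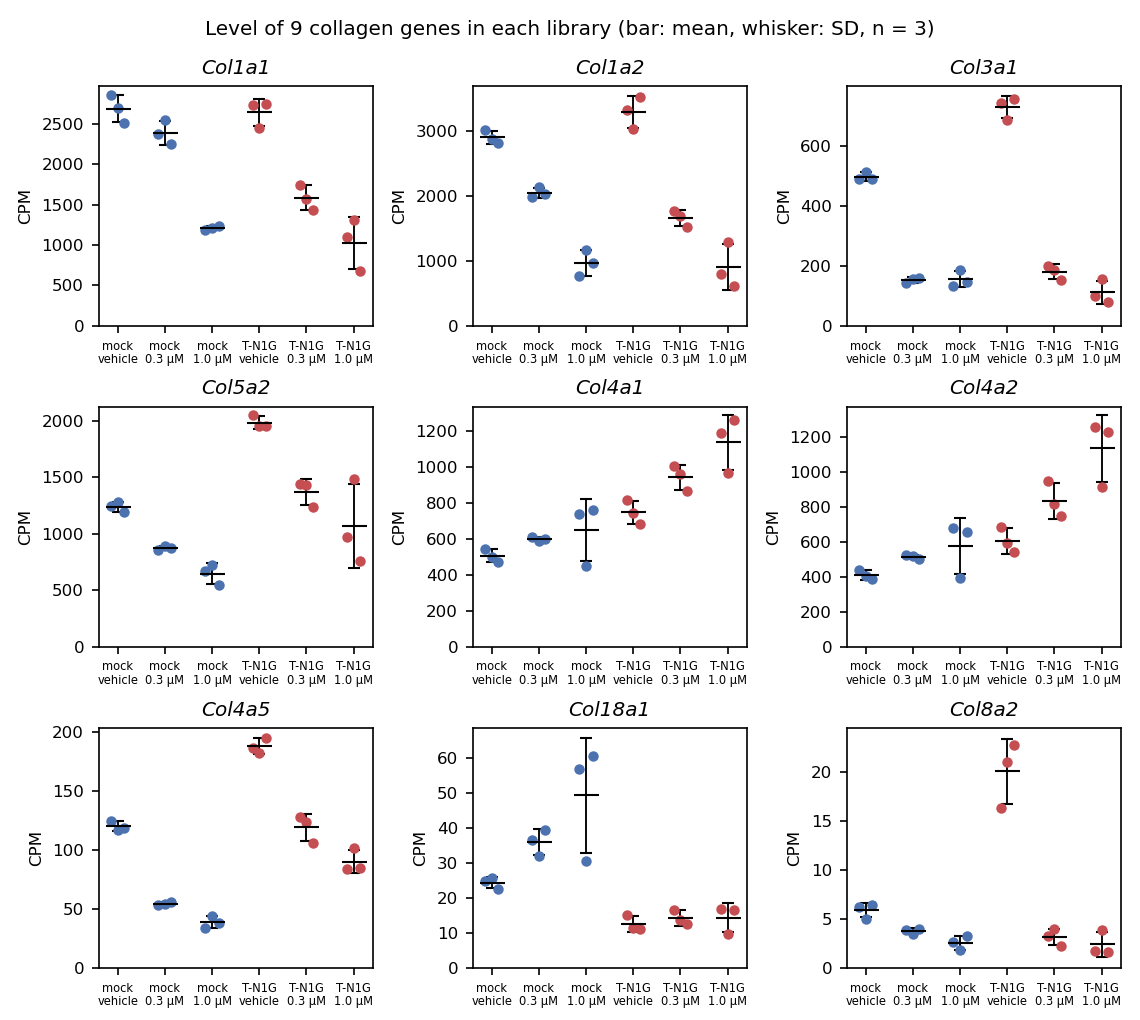
CPM of 9 collagen genes in each library (points, 3 per group) on axes from 0, with the group mean (bar) and SD (whisker), for mock and T-N1G cells at vehicle, 0.3 µM and 1.0 µM MG132. Col1a1, Col1a2 and Col3a1 are lower at 1.0 µM in both lines, and the highest 1.0 µM point for Col1a2 is library 2 in each line.

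The remaining fibrillar genes were at low levels, and several rose. Col27a1, a fibrillar collagen of developing cartilage, was at 10.6, 8.19 and 8.76 CPM in mock vehicle, 27, 27 and 22.8 at 0.3 µM and 43, 27.5 and 48.5 at 1.0 µM, every treated library lying above every vehicle library. It rose 2.78-fold at 0.3 µM (log2 1.48, SE 0.208, adjusted p = 1.63e-05) and 4.31-fold at 1.0 µM (log2 2.11, SE 0.208, adjusted p = 1.32e-07). The T-N1G libraries were at 22, 18.3 and 21.2, then 24, 22.7 and 25.6, then 44.1, 54.5 and 77.1 CPM, a rise at 1.0 µM (log2 1.52, SE 0.196, adjusted p = 2.1e-06) with a difference that did not pass the test at 0.3 µM (log2 0.23). Col27a1 shares its locus with Mir455, so its counts are uncertain in that stretch.

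Col2a1, the main fibril of cartilage, held under 1.1 CPM in every library and gave 16, 22 and 18 fragments in T-N1G vehicle and 6, 7 and 8 at 0.3 µM. It was admitted mostly by vehicle libraries, so this fall is a description. Its rise from 0.3 to 1.0 µM in that line was lost without 0.3 µM library 1, 2 or 3 or 1.0 µM library 2, and with library size alone, no filter, DESeq2 or only the groups compared. Col11a2, a chain of the minor cartilage fibril type XI, was at 0.51, 0.368 and 0.644 CPM in T-N1G vehicle and 1.41, 1.69 and 1.79 at 1.0 µM, which do not overlap (log2 1.68, SE 0.346, adjusted p = 0.000258). Col11a2 was at 0.691, 0.509 and 0.365 CPM in mock vehicle, 0.248, 0.441 and 0.341 at 0.3 µM and 0.846, 0.845 and 0.624 at 1.0 µM, a called rise between the doses (log2 1.15, SE 0.406, adjusted p = 0.0264) that ended without either of libraries 1 and 3 at 0.3 µM or 1 and 2 at 1.0 µM. Col11a1, its partner chain, was at 1.2, 0.602 and 0.685, then 0.298, 0.685 and 0.683, then 1.69, 0.792 and 1.2 CPM in mock cells and stayed at 0.0955 to 0.552 CPM in all T-N1G libraries. The cartilage and bone marker list summed to 71.9 to 77.4 CPM in mock vehicle and 240.7 to 289.3 at 1.0 µM, and to 83.5 to 86.3 and 104.5 to 140.9 CPM in T-N1G cells. Only 2 of its 7 genes averaged 1 CPM or more in each of these groups, and 3 were at 0 in mock vehicle. The part of this list in these results was not tested.

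Among the basement membrane genes, the paired Col4a1 and Col4a2 rose while Col4a5 and Col4a6 fell. Col4a1 was at 546.2, 502.4 and 473.0 CPM in mock vehicle, 613.7, 587.6 and 597.7 at 0.3 µM and 741.6, 451.5 and 761.7 at 1.0 µM. In T-N1G cells Col4a1 was at 815.9, 744.0 and 685.5, then 1004.4, 958.9 and 866.4, then 1190.3, 966.2 and 1259.6 CPM. The T-N1G vehicle and 1.0 µM libraries did not overlap, whereas mock library 2 at 1.0 µM was the lowest mock value of all. Col4a1 rose 1.52-fold at 1.0 µM in T-N1G (log2 0.61, SE 0.148, adjusted p = 0.00121) and 1.28-fold in mock cells (log2 0.36, SE 0.148, adjusted p = 0.0369). The mock call was lost without vehicle library 3, without 1.0 µM library 1 or 3, and with library size alone or only the groups compared.

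Col4a2 was at 439.6, 406.0 and 386.6, then 526.5, 516.1 and 502.9, then 675.8, 394.5 and 657.2 CPM in mock and 683.5, 590.6 and 539.0, then 945.9, 812.8 and 744.6, then 1255.2, 913.6 and 1227.6 CPM in T-N1G cells. It rose 1.87-fold in T-N1G (log2 0.91, SE 0.166, adjusted p = 8.65e-05) and 1.4-fold in mock cells (log2 0.49, SE 0.165, adjusted p = 0.0142) at 1.0 µM. The mock groups overlapped through library 2, the mock call was lost without 1.0 µM library 3, and the T-N1G groups did not overlap. At 0.3 µM Col4a2 rose in T-N1G cells (log2 0.47, SE 0.165, adjusted p = 0.0218), a call lost without vehicle library 3 or without 0.3 µM library 1. The endothelial marker list summed to 5.98 to 6.77 CPM in mock vehicle, 18.5 to 25.8 at 0.3 µM and 63.4 to 87 at 1.0 µM, and to 5.02 to 6.81, 5.82 to 9.27 and 25.1 to 38.6 CPM in T-N1G cells. Only 1 of its 5 genes averaged 1 CPM or more in each mock group, so the mock sum at 1.0 µM rests mostly on 1 gene. In the T-N1G groups 2, 1 and 3 genes did. Of the 4 tested in mock cells, 1 was called higher and 1 lower at 0.3 µM (all genes, 25.0% and 28.1%). At 1.0 µM 2 were called higher and 0 lower (32.4% and 37.4%). Epithelial markers summed to 16.8 to 20.4, 55.7 to 59.9 and 47 to 73.9 CPM in mock and 16.1 to 18.8, 27.2 to 31.9 and 21.2 to 38.4 CPM in T-N1G cells. Of these 7 genes 1, 2 and 2 averaged 1 CPM or more in the mock groups and 2, 1 and 3 in the T-N1G groups. The part of either list in the type IV values was not tested.

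Col4a5 and Col4a6 encode the chains of a tissue-restricted type IV trimer. Col4a5 was at 124.7, 117.0 and 118.1 CPM in mock vehicle, 53.4, 54.4 and 55.4 at 0.3 µM and 33.8, 44.1 and 37.8 at 1.0 µM, and at 186.4, 181.8 and 194.9, then 127.3, 123.6 and 106.1, then 84, 101.1 and 84.6 CPM in T-N1G cells. No 2 dose groups of a line overlapped, and Col4a5 fell 3.11-fold in mock (log2 -1.64, SE 0.0957, adjusted p = 1.28e-10) and 2.09-fold in T-N1G cells at 1.0 µM (log2 -1.06, SE 0.0927, adjusted p = 7.37e-09). Col4a6 was at 40.6, 38.9 and 38.5, then 26, 25.5 and 28.4, then 17, 18.1 and 17.4 CPM in mock and 60.4, 54.3 and 54.8, then 40.3, 35.6 and 29.1, then 18.7, 24 and 15.4 CPM in T-N1G cells. It fell 2.25-fold and 2.91-fold at 1.0 µM (log2 -1.17, SE 0.129, adjusted p = 2.78e-07 and log2 -1.54, SE 0.129, adjusted p = 3.96e-09), again with dose groups that did not overlap. Col4a4 stayed under 1 CPM in all libraries and passed the test in none of the 11 comparisons.

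Col15a1 and Col18a1 encode the multiplexins, proteoglycans at the edge of basement membranes, and the tail of Col18a1 gives endostatin. Col18a1 was at 24.8, 25.7 and 22.7 CPM in mock vehicle, 36.6, 32 and 39.4 at 0.3 µM and 57, 30.6 and 60.8 at 1.0 µM, all treated libraries being above vehicle (log2 1.02, SE 0.227, adjusted p = 0.000829 at 1.0 µM). The 0.3 µM call in mock cells (log2 0.56, SE 0.227, adjusted p = 0.0489) was lost whichever of its 6 libraries was left out. In T-N1G cells Col18a1 was at 15.3, 11.3 and 11.1, then 16.7, 13.7 and 12.5, then 17, 9.7 and 16.6 CPM, with overlapping groups and a log2 difference of 0.20 at 1.0 µM (adjusted p = 0.468). Col15a1 was at 6.71 to 17.1 CPM in mock and 3.66 to 8.94 CPM in T-N1G libraries, and passed no test between doses.

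Type VI genes fell at the higher dose apart from Col6a3 and Col6a5. Col6a1 was at 307.6, 273.9 and 310.1 CPM in mock vehicle, 225.4, 229.2 and 268.3 at 0.3 µM and 105.0, 156.9 and 214.7 at 1.0 µM, and at 383.5, 355.1 and 445.3, then 240.9, 230.4 and 237.6, then 135.3, 219.8 and 183.5 CPM in T-N1G cells. Every 1.0 µM library lay below every vehicle library, and Col6a1 fell 1.87-fold in mock (log2 -0.90, SE 0.199, adjusted p = 0.000801) and 2.2-fold in T-N1G cells (log2 -1.14, SE 0.2, adjusted p = 8.23e-05). Col6a2 was at 220.9, 196.1 and 218.7, then 166.7, 164.7 and 188.1, then 103.9, 130.8 and 161.4 CPM in mock and 296.8, 293.2 and 340.2, then 178.2, 174.2 and 161.9, then 103.0, 157.9 and 123.2 CPM in T-N1G cells. It fell 1.6-fold and 2.42-fold at 1.0 µM (log2 -0.68, SE 0.143, adjusted p = 0.000387 and log2 -1.28, SE 0.144, adjusted p = 2.93e-07). Col6a3 ranged from 54.1 to 262.7 CPM, both extremes being 1.0 µM libraries, and was called in 1 comparison, a rise from 0.3 to 1.0 µM in T-N1G cells (log2 1.25, SE 0.375, adjusted p = 0.0113) lost without 1.0 µM library 3.

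Col6a5, a long chain that can take the place of Col6a3 in the trimer, entered the set through its 1.0 µM libraries, so its values are a description. It was counted with 1, 3 and 0 fragments in mock vehicle, 6, 8 and 5 at 0.3 µM and 73, 165 and 85 at 1.0 µM, that is 4.11, 8.71 and 4.08 CPM at the higher dose. The fragments of the mock groups did not overlap. T-N1G libraries held 0, 1 and 0 fragments in vehicle, 2, 3 and 6 at 0.3 µM and 31, 49 and 29 at 1.0 µM. Pooled over its 3 libraries, the ratio of 1.0 µM to vehicle was 135.1, with an exact 95% interval from 23.7 to 5384.1 that covers counting error only. Its place among the higher genes at 0.3 µM was lost without mock vehicle library 1 or 3 or mock 0.3 µM library 2, without T-N1G vehicle library 1 or 3 or T-N1G 0.3 µM library 3, and in both lines with only the groups compared.

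Of the FACITs, which coat fibrils, Col12a1 was the most abundant and Col16a1 the one that fell in both lines. Col12a1 was at 846.2, 715.6 and 741.9 CPM in mock vehicle, 751.1, 723.8 and 699.2 at 0.3 µM and 1676.4, 530.1 and 1115.8 at 1.0 µM, where library 1 was the highest and library 2 the lowest of all mock libraries. In T-N1G cells Col12a1 was at 1159.1, 957.8 and 980.8, then 887.4, 836.1 and 645.7, then 1889.1, 1112.7 and 1422.1 CPM. The difference between the doses passed the test in T-N1G cells (log2 0.90, SE 0.297, adjusted p = 0.0172), a call lost without 0.3 µM library 3 or 1.0 µM library 1, and no other Col12a1 comparison did. Col16a1, a FACIT made by dermal fibroblasts, was at 77.3, 74.9 and 79.9, then 40.2, 43 and 41.3, then 30.4, 26.5 and 29.4 CPM in mock and 105.0, 91.1 and 104.5, then 56.5, 45.3 and 43.5, then 27.5, 38.1 and 25.6 CPM in T-N1G cells. Its dose groups did not overlap in either line, and the fall at 1.0 µM was 2.69-fold in mock (log2 -1.43, SE 0.124, adjusted p = 1.46e-08) and 3.29-fold in T-N1G cells (log2 -1.72, SE 0.124, adjusted p = 6.13e-10).

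The other FACIT genes were at low levels. Col20a1 was at 2.99, 2.41 and 1.83 CPM in mock vehicle, 1.34, 1.13 and 1.12 at 0.3 µM and 1.35, 1.11 and 1.44 at 1.0 µM, below vehicle in every treated library (log2 -0.88, SE 0.27, adjusted p = 0.00726 at 1.0 µM, a call lost without vehicle library 1). In T-N1G cells Col20a1 was at 2.36, 1.79 and 2.81, then 1.98, 2.02 and 1.1, then 5.16, 3.5 and 5.58 CPM, with every 1.0 µM library above the rest (log2 1.03, SE 0.242, adjusted p = 0.000856). Col9a3, a chain of the cartilage FACIT type IX whose locus overlaps Tcfl5, gave 3, 4 and 7 fragments in T-N1G vehicle and 15, 12 and 17 at 1.0 µM, the group through which it met the limit. Col22a1, a FACIT of tissue junctions, gave 0, 1 and 0 fragments in T-N1G vehicle, 9, 13 and 7 at 0.3 µM and 12, 17 and 12 at 1.0 µM. The pooled ratio of Col22a1 at 1.0 µM to vehicle was 50.8 (95% interval 8.62 to 2055.4), and the 9 mock libraries held no more than 2 fragments each. These T-N1G libraries are also what admitted Col22a1 to the set, so its ratio and interval are descriptions. Col14a1 ranged from 1.1 to 4.75 CPM and passed no test.

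Col8a1 and Col8a2 encode short-chain type VIII collagen, a hexagonal network under endothelia, and Col10a1 encodes the related collagen of hypertrophic cartilage. Col8a1 was at 106.9, 99.8 and 91.5 CPM in mock vehicle, 28.1, 24.8 and 27 at 0.3 µM and 53.2, 54.3 and 50.8 at 1.0 µM, and at 78.6, 66 and 65.5, then 12.4, 9.81 and 8.69, then 25.9, 19.8 and 28.2 CPM in T-N1G cells. In both lines the 0.3 µM libraries were the lowest, those at 1.0 µM lay between, and no groups overlapped. Col8a1 fell 3.73-fold at 0.3 µM in mock (log2 -1.90, SE 0.125, adjusted p = 1.99e-09) and 6.8-fold in T-N1G cells (log2 -2.77, SE 0.134, adjusted p = 1.58e-11). From 0.3 to 1.0 µM it then rose 1.98-fold in mock (log2 0.99, SE 0.124, adjusted p = 8.6e-06) and 2.39-fold in T-N1G cells (log2 1.26, SE 0.136, adjusted p = 8.88e-07).

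Col8a2 was at 6.26, 5.05 and 6.43, then 3.92, 3.48 and 4, then 2.65, 1.8 and 3.26 CPM in mock and 16.4, 21.1 and 22.8, then 3.22, 3.95 and 2.29, then 1.72, 3.89 and 1.63 CPM in T-N1G cells. T-N1G vehicle stood above every other group, and Col8a2 fell 8.31-fold at 1.0 µM there (log2 -3.05, SE 0.273, adjusted p = 1.2e-08) and 2.29-fold in mock cells (log2 -1.20, SE 0.274, adjusted p = 0.000839). The mock call at 0.3 µM was lost whichever of its 6 libraries was left out. Col10a1, whose locus overlaps Nt5dc1, was at 15, 10.1 and 8.26, then 5.31, 3.48 and 3.07, then 2.37, 0.581 and 2.73 CPM in mock and 10, 6.35 and 6.9, then 5.7, 3.44 and 3.06, then 1.97, 2.14 and 2.22 CPM in T-N1G cells. It fell 5.84-fold and 3.66-fold at 1.0 µM (log2 -2.55, SE 0.384, adjusted p = 1.87e-05 and log2 -1.87, SE 0.386, adjusted p = 0.000331). The T-N1G fall at 0.3 µM was lost without vehicle library 1, without 0.3 µM library 2 or 3, and with no filter.

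Col7a1, the anchoring fibril that ties epidermis to dermis, was at 6.59, 6.76 and 5.34 CPM in mock vehicle, 8.69, 11.3 and 7.85 at 0.3 µM and 24.2, 28.6 and 11 at 1.0 µM. The T-N1G libraries were at 3.34, 3.64 and 5.06, then 5, 5.46 and 8.5, then 12.8, 20.6 and 8.13 CPM. All 1.0 µM libraries were above vehicle, with library 2 the highest in both lines, and Col7a1 rose 3.41-fold in mock (log2 1.77, SE 0.353, adjusted p = 0.000358) and 3.45-fold in T-N1G cells (log2 1.78, SE 0.371, adjusted p = 0.000414). Its locus also holds Mir711.

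The transmembrane collagens and Col28a1 were rare transcripts. Col23a1 was counted with 6, 4 and 2 fragments in mock vehicle, 9, 7 and 14 at 0.3 µM and 32, 16 and 25 at 1.0 µM. Col17a1, a hemidesmosome component of keratinocytes, gave 1, 0 and 0 fragments in mock vehicle and 8, 3 and 12 at 1.0 µM, a pooled ratio of 26.1 (95% interval 4.23 to 1074.3). In T-N1G cells it gave 7, 5 and 5 and 22, 12 and 27 fragments. Col28a1, a von Willebrand domain collagen of nerve and skin, gave 20, 15 and 7, then 21, 15 and 13, then 49, 20 and 51 fragments in the T-N1G groups. In mock cells Col28a1 had 1 fragment in each 0.3 µM library. All 3 genes met the limit mostly or wholly through the groups where they were high, so no test is given for them. The interval of Col17a1 pools its libraries, covers counting error only and supports no difference.

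Between the lines in vehicle, 13 of the 34 genes were higher in T-N1G cells and 2 lower, beside 8.43% and 7.72% of all genes. The median log2 difference of the 34 was 0.28, and that of all genes 0.00. Without mock vehicle library 3 the collagen median was 0.16, and with only the groups compared 0.18. Of the 13, 2 (Col17a1 and Col28a1) did not meet the limit on vehicle libraries. The comparison is sensitive to single libraries: with 1 of its 6 libraries left out, 5 to 8 genes were higher (5 without mock library 2), and the 2 lower genes became 1 without T-N1G library 3. Higher genes included Col5a2 at 1245.3, 1279.8 and 1194.0 CPM in mock and 2045.7, 1953.4 and 1951.8 in T-N1G cells (log2 0.68, SE 0.163, adjusted p = 0.00797) and Col4a5 (log2 0.65, SE 0.0915, adjusted p = 8.28e-05), both of which kept the call whichever library was left out. Col4a1 and Col4a2 were 1.48-fold and 1.47-fold higher (log2 0.56, SE 0.148, adjusted p = 0.0142 and log2 0.56, SE 0.165, adjusted p = 0.0285), and Col3a1 1.47-fold higher (log2 0.55, SE 0.177, adjusted p = 0.0438), but leaving out any 1 of the 6 libraries ended the Col3a1 call, as did library size alone or no filter. The Col4a2 call was lost without mock library 1, 2 or 3 or T-N1G library 1 or 2, and that of Col4a1 without mock library 2 or 3 or T-N1G library 1. Col8a2 was 3.4-fold higher (log2 1.76, SE 0.245, adjusted p = 7.35e-05) and Col27a1 2.23-fold higher (log2 1.16, SE 0.209, adjusted p = 0.00104). Col18a1 was 1.94-fold lower in T-N1G cells (log2 -0.96, SE 0.238, adjusted p = 0.0113), a call lost without T-N1G library 3, and Col8a1 1.42-fold lower (log2 -0.51, SE 0.119, adjusted p = 0.00662). The type I genes did not pass the test (log2 -0.03 for Col1a1 and 0.18 for Col1a2).

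Some rare transcripts also differed between the vehicle groups, given here as descriptions. Col17a1 gave 1, 0 and 0 fragments in mock and 7, 5 and 5 in T-N1G vehicle, a pooled ratio of 17 (95% interval 2.67 to 712.5), and Col28a1 was at 0.138, 0.185 and 0.274 and 0.927, 0.69 and 0.322 CPM. Both met the limit through T-N1G libraries and 1.0 µM libraries. Col17a1 dropped out of the count without mock library 2 or 3 or T-N1G library 1, 2 or 3, Col28a1 without library 1 or 2 of either line, and both with only the groups compared. The call of Col2a1 (log2 0.94, SE 0.314, adjusted p = 0.0481) was lost whichever of the 6 was left out and with library size alone, no filter or DESeq2. That of Col16a1 (log2 0.37, SE 0.118, adjusted p = 0.0392) was lost without mock library 1, 2 or 3 or T-N1G library 1 or 3, and with library size alone. In this comparison chromosome 11 had 24.7% of 1109 tested genes lower and 2.71% higher, and chromosome 4 had 22% of 835 lower and 6.71% higher, against 4.99% and 9.12% elsewhere. Col8a2, Col15a1, Col16a1 and Col27a1 lie on chromosome 4 and Col1a1 and Col23a1 on chromosome 11. None of these 6 was among the lower genes, and the part of these chromosomes in the collagen values was not tested.

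At 0.3 µM, 7 genes were higher and 8 lower in T-N1G than in mock cells (all genes, 25.0% and 23.5%), and at 1.0 µM 12 were higher and 7 lower (30.7% and 31.3%). At 1.0 µM Col4a1 and Col4a2 were 1.75-fold and 1.97-fold higher (log2 0.81, SE 0.148, adjusted p = 0.000135 and log2 0.98, SE 0.166, adjusted p = 6.67e-05), and Col4a5 2.33-fold higher (log2 1.22, SE 0.0955, adjusted p = 4.08e-09). Col18a1 was 3.43-fold lower (log2 -1.78, SE 0.238, adjusted p = 7.53e-06) and Col8a1 2.14-fold lower (log2 -1.10, SE 0.126, adjusted p = 5.84e-07). Col11a1 was counted as lower too, a description only, as it was admitted mostly by mock libraries. Col15a1 was lower in T-N1G cells at 0.3 µM (log2 -1.29, SE 0.377, adjusted p = 0.0104), where Col5a1 was also lower (log2 -0.60, SE 0.134, adjusted p = 0.00123). Col22a1 was pooled at 14.5 times the mock count at 0.3 µM (95% interval 3.68 to 125.8), and Col28a1 at 16.4 times (5.29 to 82.2). Both genes were admitted by T-N1G libraries alone, so these ratios and intervals are descriptions. Genes that did not meet the limit on vehicle libraries made up 2 of the 7 higher and 1 of the 8 lower at 0.3 µM, and 4 of the 12 and 2 of the 7 at 1.0 µM. These comparisons share libraries with those of dose. The 8 lower genes at 0.3 µM became 5 without mock library 3 or T-N1G library 1. With only the groups compared in the model, 4 rather than 7 genes were lower at 1.0 µM.

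The interaction test asks whether the response to MG132 differed between the lines. At 0.3 µM it was lower in T-N1G cells for 5 of the 34 genes and higher for 1 (all genes, 11.0% and 14.2%), and at 1.0 µM lower for 6 and higher for 3 (22.1% and 22.9%). Col8a2 differed most among the lower ones, with an interaction of -2.04 at 0.3 µM (adjusted p = 0.000552) and -1.86 at 1.0 µM (adjusted p = 0.000804) on the log2 scale. Col3a1 fell further in T-N1G cells at 1.0 µM (log2 -1.03, SE 0.253, adjusted p = 0.00324), and Col5a1, which fell only in that line by the test, differed at both doses (log2 -0.69, SE 0.189, adjusted p = 0.0123 and log2 -0.54, SE 0.189, adjusted p = 0.0276). Col4a5 fell less in T-N1G cells at both doses (log2 0.48, SE 0.13, adjusted p = 0.0107 and log2 0.57, SE 0.131, adjusted p = 0.00167). For the type I genes the interaction did not pass the test at 1.0 µM (log2 -0.21, SE 0.219, adjusted p = 0.466 for Col1a1; log2 -0.29, SE 0.271, adjusted p = 0.409 for Col1a2).

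Col8a1 fell further in T-N1G cells at both doses (log2 -0.87, SE 0.179, adjusted p = 0.00165 and log2 -0.59, SE 0.172, adjusted p = 0.00932), as did Col6a2 (log2 -0.56, SE 0.2, adjusted p = 0.048 and log2 -0.59, SE 0.201, adjusted p = 0.0228). Col27a1 rose in mock and not in T-N1G cells at 0.3 µM, and that difference passed the test (log2 -1.24, SE 0.287, adjusted p = 0.0043). Col20a1 had the opposite sign, with a higher response in T-N1G cells at 1.0 µM (log2 1.91, SE 0.362, adjusted p = 0.00033). Col9a3 was also counted there, but it was admitted mostly by its T-N1G 1.0 µM libraries. Col11a1 was among the lower responses, but it was admitted mostly by mock libraries. Its call was lost in 9 of 12 fits that left out 1 library, with the replicate block, no filter, DESeq2 or only the groups compared. The Col6a2 call at 0.3 µM was lost whichever of its 12 libraries was left out and with library size alone or no filter. The Col5a1 and Col6a2 calls at 1.0 µM were lost without mock 1.0 µM library 3 and with only the groups compared. That of Col5a1 was also lost without T-N1G vehicle library 3, and that of Col6a2 without library 3 at 1.0 µM in both lines. The 6 lower responses at 1.0 µM became 3 without mock 1.0 µM library 3 and 11 without library 2 at 1.0 µM in both lines.

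**Figure D4:**
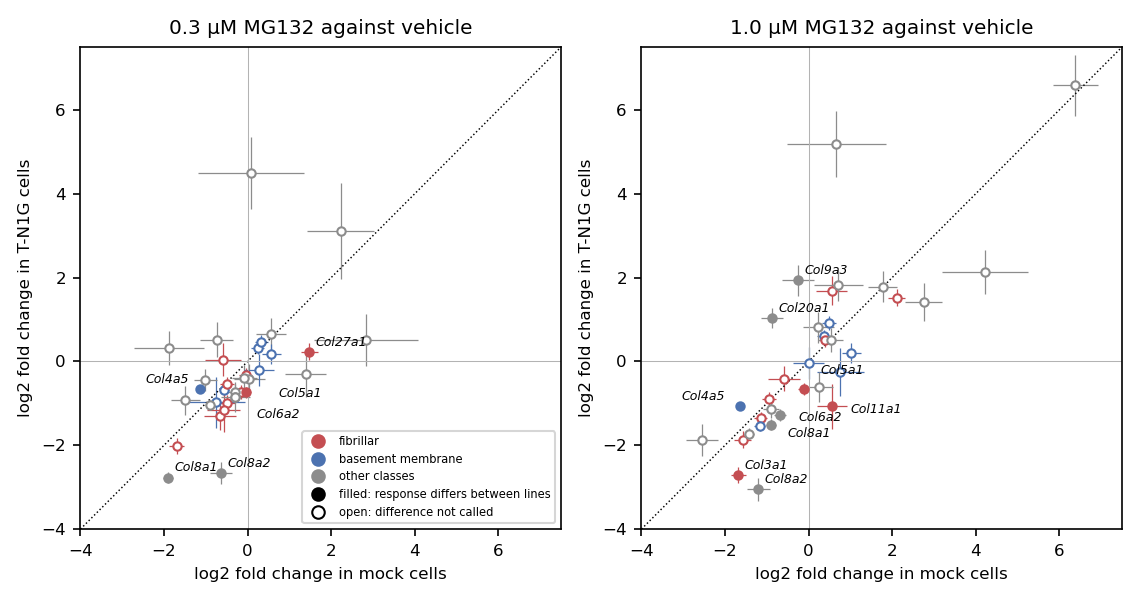
Log2 change of each of the 34 genes against vehicle in mock (x axis) and T-N1G cells (y axis) at 0.3 µM (left) and 1.0 µM (right), with SE as lines and the diagonal dotted. Filled and named points are genes whose response differed between the lines by the interaction test, with Col3a1 and Col8a2 below and Col20a1 and Col9a3 above the diagonal at 1.0 µM. Col9a3 was admitted mostly by T-N1G libraries at 1.0 µM, so its position is a description.

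Within a library, the ratio of a pair of chains does not depend on library scaling. The FPKM ratio of Col1a1 to Col1a2, whose chains assemble in a fixed proportion, was 1.04, 1.03 and 0.976 in mock vehicle, 1.31, 1.3 and 1.21 at 0.3 µM and 1.68, 1.13 and 1.39 at 1.0 µM. In T-N1G cells it was 0.898, 0.886 and 0.854, then 1.09, 1.02 and 1.04, then 1.51, 1.11 and 1.21. Every treated library lay above every vehicle library of its line, so Col1a2 had the lower share of the pair after MG132. Across the same groups Col4a1 to Col4a2 was 1.2 ± 0.00956, 1.13 ± 0.0242 and 1.1 ± 0.0312 in mock and 1.21 ± 0.0408, 1.1 ± 0.062 and 0.981 ± 0.0546 in T-N1G cells.

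The type V pair separated the lines. Col5a1 to Col5a2 was 0.603 ± 0.0315 in mock vehicle, 0.823 ± 0.0026 at 0.3 µM and 1.09 ± 0.356 at 1.0 µM, but 0.4 ± 0.0485, 0.348 ± 0.0261 and 0.507 ± 0.216 in T-N1G cells. Col5a2 to Col3a1 went from 2.09 ± 0.0413 in mock vehicle to 4.8 ± 0.233 and 3.52 ± 0.598, and from 2.28 ± 0.109 to 6.41 ± 0.407 and 8.07 ± 0.0758 in T-N1G cells. Col8a1 to Col8a2 was 14.3 ± 2.34, 5.9 ± 0.193 and 18.5 ± 6.32 in mock and 3.02 ± 0.871, 2.84 ± 0.647 and 10.5 ± 5.49 in T-N1G cells. These ratios are transcript ratios and were not tested.

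**Figure D5:**
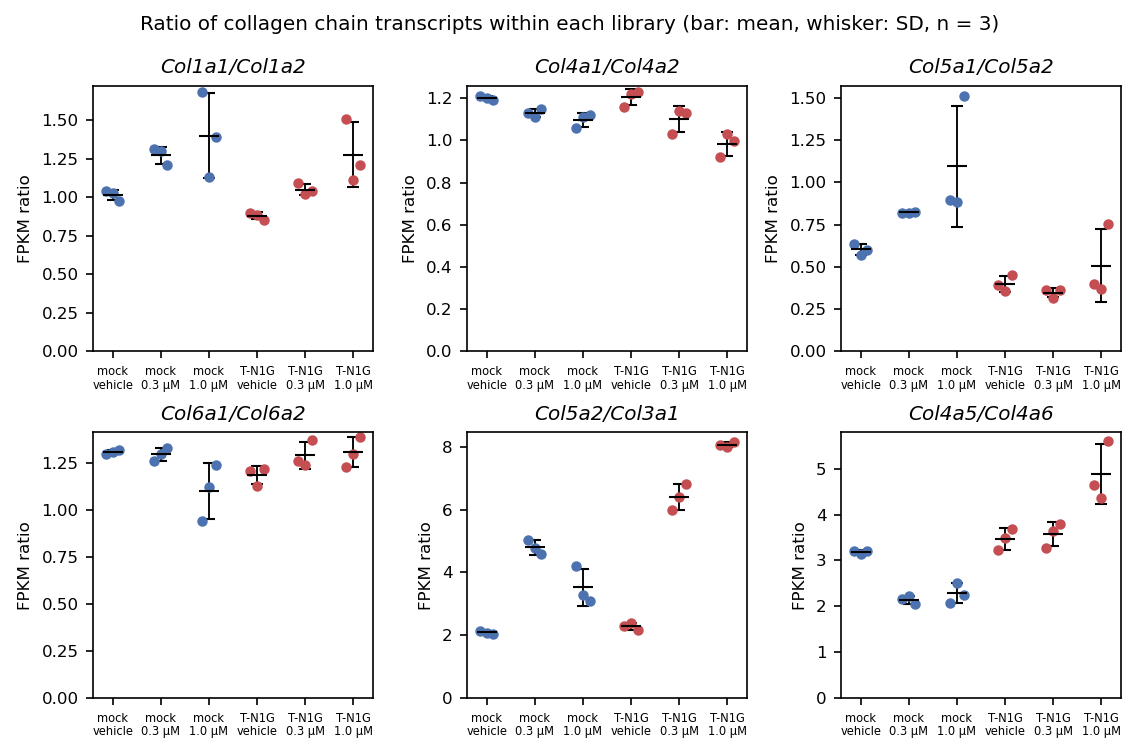
FPKM ratio of paired collagen chains in each library (points, 3 per group) on axes from 0, with the group mean (bar) and SD (whisker), by line and dose. The Col1a1 to Col1a2 ratio is higher in treated than in vehicle libraries of each line, and the Col5a1 to Col5a2 ratio is lower in T-N1G than in mock cells.

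The genes that fold, export and process collagen were counted from lists, to be read beside all genes tested. At 1.0 µM 37.4% of all genes were lower and 32.4% higher in mock cells, and 38.9% and 37.5% in T-N1G cells. Of 18 folding and modification genes, 10 fell and 7 rose in mock cells at 1.0 µM, and 9 fell and 3 rose in T-N1G cells. P4ha2, a prolyl hydroxylase subunit, rose 3.2-fold in mock (log2 1.68, SE 0.129, adjusted p = 3.56e-09), and Serpinh1, the collagen chaperone Hsp47, rose 1.59-fold (log2 0.67, SE 0.11, adjusted p = 2.98e-05). Crtap and P3h4, partners of the prolyl 3-hydroxylases, fell in both lines, Crtap 2.39-fold in mock and 3.32-fold in T-N1G cells and P3h4 3.14-fold and 6.04-fold. The prolyl isomerase Fkbp14 fell in mock cells (log2 -1.88, SE 0.103, adjusted p = 5.91e-11), and its response differed between the lines (log2 1.80, SE 0.14, adjusted p = 1.74e-08). Of 18 such genes, 13 had a lower response in T-N1G cells at 1.0 µM and 3 a higher one (all genes, 22.1% and 22.9%), with P4ha2 among the lower (log2 -1.17, SE 0.181, adjusted p = 4.46e-05).

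Of 12 secretion genes, 8 fell and 1 rose in mock cells at 1.0 µM (all genes, 37.4% and 32.4%) and 4 fell and 5 rose in T-N1G cells (38.9% and 37.5%). Creb3l1, a membrane-bound activator of collagen secretion genes, fell 2.63-fold in mock (log2 -1.40, SE 0.134, adjusted p = 6.14e-08) and 4.76-fold in T-N1G cells (log2 -2.25, SE 0.139, adjusted p = 9.4e-11). The coat subunit Sec24d rose in T-N1G cells (log2 0.87, SE 0.0734, adjusted p = 4.83e-09). Of 7 procollagen processing genes 4 fell and 2 rose in each line, and Pcolce, the enhancer of the C-proteinase, fell 2.79-fold in mock and 4.72-fold in T-N1G cells.

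None of the 5 cross-linking genes rose against vehicle in either line, and at 1.0 µM 3 fell in the mock and 4 in the T-N1G line (all genes lower, 37.4% and 38.9%). Loxl1, a lysyl oxidase, fell 4.16-fold in mock (log2 -2.06, SE 0.131, adjusted p = 3.92e-10) and 5.36-fold in T-N1G cells (log2 -2.42, SE 0.133, adjusted p = 1.74e-11). Of 12 fibril-associated genes 5 fell and 4 rose in each line. Sparc, a collagen-binding glycoprotein, fell 3.61-fold and 4.25-fold, Prelp, a leucine-rich proteoglycan, fell 4.15-fold and 11.7-fold, and fibronectin (Fn1) rose 3.52-fold and 3.11-fold in mock and T-N1G cells. Of 8 collagen receptor genes 4 rose and 3 fell in mock and 2 rose and 3 fell in T-N1G cells.

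The list of 13 genes of TGF-beta input, a main inducer of fibrillar collagen, had 9 higher and 1 lower in mock cells at 1.0 µM (all genes, 32.4% and 37.4%) while in the T-N1G line 3 were higher and 7 lower (37.5% and 38.9%). Ctgf, a target gene of that pathway, was 6.76-fold higher in mock cells (log2 2.76, SE 0.549, adjusted p = 0.000509), and Smad7, its feedback inhibitor, rose in both lines (log2 1.79, SE 0.185, adjusted p = 3.3e-07 and log2 2.32, SE 0.19, adjusted p = 1.08e-08). Of the 13, 9 had a lower response in T-N1G cells at 1.0 µM and none a higher one (all genes, 22.1% and 22.9%), Tgfb1 by the most (log2 -1.99, SE 0.221, adjusted p = 1.08e-06). In vehicle, T-N1G cells had 3 of 12 fibril-associated genes higher than mock and none lower (all genes, 8.43% and 7.72%), fibromodulin (Fmod) by the most (log2 2.84, SE 0.388, adjusted p = 0.000225).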

How the data were processed

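Poly(A) RNA was sequenced from 18 libraries with a strand-specific kit, per the labels' protocols. The submitters' processing notes name bcl2fastq 2.16.0.10, TopHat2 2.0.8b, Cuffdiff 2.1.1 and the build mm9. The authors deposited Cuffdiff tables with an estimated count of raw fragments and a scaled FPKM per gene and library, per the file headers. Whether counting used strand is not given in the sources used here, so genes with overlapping loci are uncertain. Replicates 0 to 2 of the tables were read as title numbers 1 to 3 and their N1 as T-N1G. Their L-MG was read as 0.3 µM, and H-MG as 1.0 µM. None of these matches is spelled out in the deposited tables.

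Of the deposited estimated counts, 98.16% to 98.51% per library were whole within 1e-06, and all were rounded. After removal of 2 genes with a skipped status, genes were filtered (filterByExpr by group), scaled by TMM and fitted with edgeR 4.0.16 in R 4.3.3, with 1 quasi-likelihood model of 6 group means, robust dispersion and Benjamini-Hochberg adjustment over 13258 genes. Levels are TMM-scaled CPM computed here. FPKM served to compare genes with each other. The standard error is the absolute log2 change divided by the square root of F. Where a group held 1 to 3 fragments, the pooled ratio with its exact 95% interval replaces the fitted fold. No count of 0 was turned into a fold. Fragments carry no molecular identifiers, so these intervals cover counting error only. They pool the libraries of a group and are no test of a difference. The fit was tested on simulated counts with known changes, whose sizes it recovered with little bias. The simulation gave every gene and library the same dispersion and changed only genes with higher counts. It therefore cannot show how the fit behaves for rare genes or under the wider spread at 1.0 µM. Some simulated halvings and doublings and more of the smaller changes were not called. The pass rule, loosened after earlier failures, set no minimum for them, so a difference that did not pass the test may be a missed one.

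Per-library values were given for 12 major genes and for up to 4 called genes of largest change per direction and comparison, and pathway genes by the same rule with up to 3 per list. The members and lists were chosen with earlier results of these data known. Alternatives were RLE scaling, library size alone, no filter, DESeq2 1.42.0, a model of only the groups compared, a replicate block, and leaving out libraries. Promoters came from RefSeq, GRCm38.p6. Col1a1, Col2a1, Col5a2, Col9a3, Col12a1, Col14a1 and Col22a1 have no printed window.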

Additional observations from a re-analysis of the deposited data

Results flagged for a closer look

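For 10 collagen genes the response to MG132 differed between the mock and the T-N1G line by the interaction test of edgeR's quasi-likelihood model, in 15 gene and dose combinations. At 0.3 µM the difference of the 2 log2 changes, T-N1G minus mock, was -2.04 for Col8a2, -1.24 for Col27a1, -0.87 for Col8a1, -0.69 for Col5a1, -0.56 for Col6a2 and 0.48 for Col4a5. At 1.0 µM it was -1.86 for Col8a2, -1.62 for Col11a1, -1.03 for Col3a1, -0.59 for Col8a1, -0.59 for Col6a2 and -0.54 for Col5a1. On the other side were Col9a3 at 2.18, Col20a1 at 1.91 and Col4a5 at 0.57. Col8a2, Col8a1, Col5a1, Col6a2 and Col4a5 differed at both doses with the same sign. The calls of Col6a2 at 0.3 µM and of Col11a1 at 1.0 µM rested on most single libraries of their comparison, and that of Col11a1 was also lost with the replicate block, no filter, DESeq2 and only the groups compared. The Col6a2 call at 1.0 µM was lost without mock 1.0 µM library 3. Col9a3 and Col11a1 were below 1 CPM in every T-N1G library. Col9a3 met the member limit mostly through T-N1G libraries at 1.0 µM and Col11a1 mostly through mock libraries, so the values of both are descriptions.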

How the results depend on the processing

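The counts of higher and lower collagen genes in the 11 comparisons stayed within 1.5 times under RLE scaling, library size alone, DESeq2 and a replicate block, and no called value changed sign under any alternative. Leaving out 1 library at a time gave, between the lines in vehicle, 5 to 8 higher genes (13 with all) and 1 to 2 lower (2 with all). It gave 5 to 7 lower at 0.3 µM between the lines (8 with all). Against vehicle at 0.3 µM it gave 1 to 4 higher in mock (4) and 1 to 3 higher in T-N1G cells (3). From 0.3 to 1.0 µM in mock cells it gave 6 to 14 higher (9) and 5 to 8 lower (9). For the interaction it gave 1 to 2 higher at 0.3 µM (1) and 3 to 8 lower at 1.0 µM (6). With only the groups compared, 4 genes were lower in T-N1G cells at 1.0 µM (7), and the interaction had 2 higher (1) and 9 lower (5) at 0.3 µM and 3 lower at 1.0 µM (6). Without a filter 5 genes were lower from 0.3 to 1.0 µM in mock cells (9). Without replicate 3 at 1.0 µM in both lines 5 genes were higher in T-N1G cells at 0.3 µM (3). Without replicate 2 at 1.0 µM in both lines, chosen after seeing the data, mock cells had 7 higher at 0.3 µM (4) and 14 higher from 0.3 to 1.0 µM (9), T-N1G cells 11 lower between the doses (7), and the interaction 2 higher at 0.3 µM (1) and 11 lower at 1.0 µM (6). The cause of these moves was not tested.

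Same-numbered libraries of different groups correlated in their deviations from the group means with a median of 0.173 (-0.113 to 0.702), and 34 of 45 pairs exceeded 0.1. The highest were between the lines at 1.0 µM (0.578, 0.649 and 0.702) and between T-N1G vehicle and 0.3 µM (0.598, 0.513 and 0.416). Different numbers gave -0.492 to -0.156 between the lines at 1.0 µM. Libraries of different numbers had a median of -0.1135, and in 31 of 45 cases the best match had the same number, a hint from the data and not from the design. As not every pair exceeded 0.1 and the labels name no shared batch, the numbers were not taken to pair the libraries. With the replicate block, 13 collagen genes were lower at 1.0 µM in either line, as without it, 14 rather than 13 were higher in T-N1G cells, and of the single gene results 8 passed the test anew and 2 no longer did, Col8a2 in mock cells at 0.3 µM and Col11a1 in the interaction at 1.0 µM. Library size alone moved the median log2 change of all genes at 1.0 µM to -0.13 in mock and -0.15 in T-N1G cells. Genes under about 1 CPM, such as Col22a1 and Col17a1, are limited by depth.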

Other observations

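Collagen genes varied more between libraries of a group than genes at large. Over the 22 collagen genes with a mean log2 CPM over 2, the median SD of log2 CPM within a group was 0.0951 in mock vehicle, 0.0882 at 0.3 µM and 0.415 at 1.0 µM, against 0.0581, 0.0614 and 0.163 over 10184 genes above the same level. In T-N1G cells the collagen values were 0.15, 0.197 and 0.368, against 0.0729, 0.0855 and 0.191 over those genes. Smooth muscle markers summed to 84.1 to 91.4 CPM in mock vehicle and 77.5 to 82.5 at 1.0 µM, and to 81.9 to 84.4 and 35.9 to 43.1 CPM in T-N1G cells. Their part in the collagen values was not tested.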
